A study of Acropora tenuis with 242 samples.

Results

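The 100 gene models described here were chosen among 25142 models counted in larvae of the reef coral Acropora tenuis, as those whose level in the larval libraries labelled Pre followed the population written first in the name of a cross rather than the population written second. Levels were CPM, the count of a model as its share of the library's total scaled to a fixed library size, and the value of a cross was log2 of its mean CPM plus 1. For each model the share of the variance among the 11 Pre crosses that lay between first-named populations, and the share that lay between second-named populations, were computed as eta-squared. Of the 2257 models with a mean of at least 20 CPM and a standard deviation over crosses of at least 0.4 (log2), the 100 with the highest first-named minus second-named eta-squared were taken. All 100 were also counted in the juvenile table. The Pre values therefore describe the choice and are given with no test. The Ambient and Hot larval libraries and the juvenile libraries were not used by the rule.

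Corals of this genus release eggs and sperm, and an egg of one colony fertilised by sperm of another gives a cross whose parents can come from different reefs. The egg supplies the cytoplasm, the mitochondria and a store of RNA and yolk, so the levels of some transcripts in young larvae can follow the colony that made the egg. A cross made in both directions is the usual way to tell the parental roles apart. The labels used here do not say which of the named populations gave the eggs, so the populations are called first-named and second-named throughout.

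The study sequenced tag-based RNA libraries, in which a single short stretch is read per transcript, from crosses within and between 5 populations coded BK, CU, DR, LS and SB. Larvae of BKxBK, CUxBK, CUxCU, CUxSB, DRxDR, DRxSB, LSxCU, LSxLS, LSxSB, SBxBK and SBxSB were sampled under the temperature labels Pre and Ambient, with 33 libraries each, and all but LSxSB under Hot, with 30 libraries. Each larval cross had 3 libraries per temperature label and no symbiont treatment. Juveniles at Ambient came from BKxBK, CUxCU, CUxDR, CUxSB, DRxCU, DRxDR, DRxSB, LSxCU, LSxLS and SBxSB, with 10 to 13 libraries per cross, divided among the symbiont treatments C1 (29 libraries), D1 (32), SED (28) and SS (30). The labels name no colony or culture vessel, so libraries of a cross may share parents and rearing, and tests over libraries measure only the spread between libraries. Each cross was therefore counted once in the tests of larvae, as the sum of its libraries, except where stated.

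Library totals ranged from 79712 to 1102351 counts at Pre (median 891483), from 723767 to 1014232 in Ambient larvae, from 680545 to 998495 in Hot larvae and from 158481 to 617578 in Ambient juveniles. The lowest total belonged to replicate 2 of LSxCU at Pre, and 79 of the 100 members were chosen again without it. The 3 BKxBK libraries at Pre had totals of 672768, 536230 and 677885, below the median of the Pre libraries. The part of depth in the BKxBK values was not tested.

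The populations were unevenly represented in the first-named position, and the members' levels showed it. At Pre, BK stood first in 1 cross, BKxBK, whereas CU and LS stood first in 3 crosses each and DR and SB in 2 each. For each member the leading population was defined as the first-named population whose mean lay farthest from the mean of the other population means. BK led in 88 of the 100 members, CU in 11 and LS in 1, and DR and SB in none. Among the 2257 models eligible for the rule, BK led in 61.8% and CU in 15.4%. The members led by BK were high in 32 cases and low in 56. In 88 members the leading contrast is thus a single within-population cross, BKxBK, against the 10 others. A level tied to BK in the first-named position and one found only in BKxBK cannot be told apart here. CUxBK and SBxBK, which carry BK as the second-named population, did not share the BKxBK level, and the rule favoured models with this trait. When the rule was applied without BKxBK, 19 of the 100 members were chosen again.

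**Figure D1:**
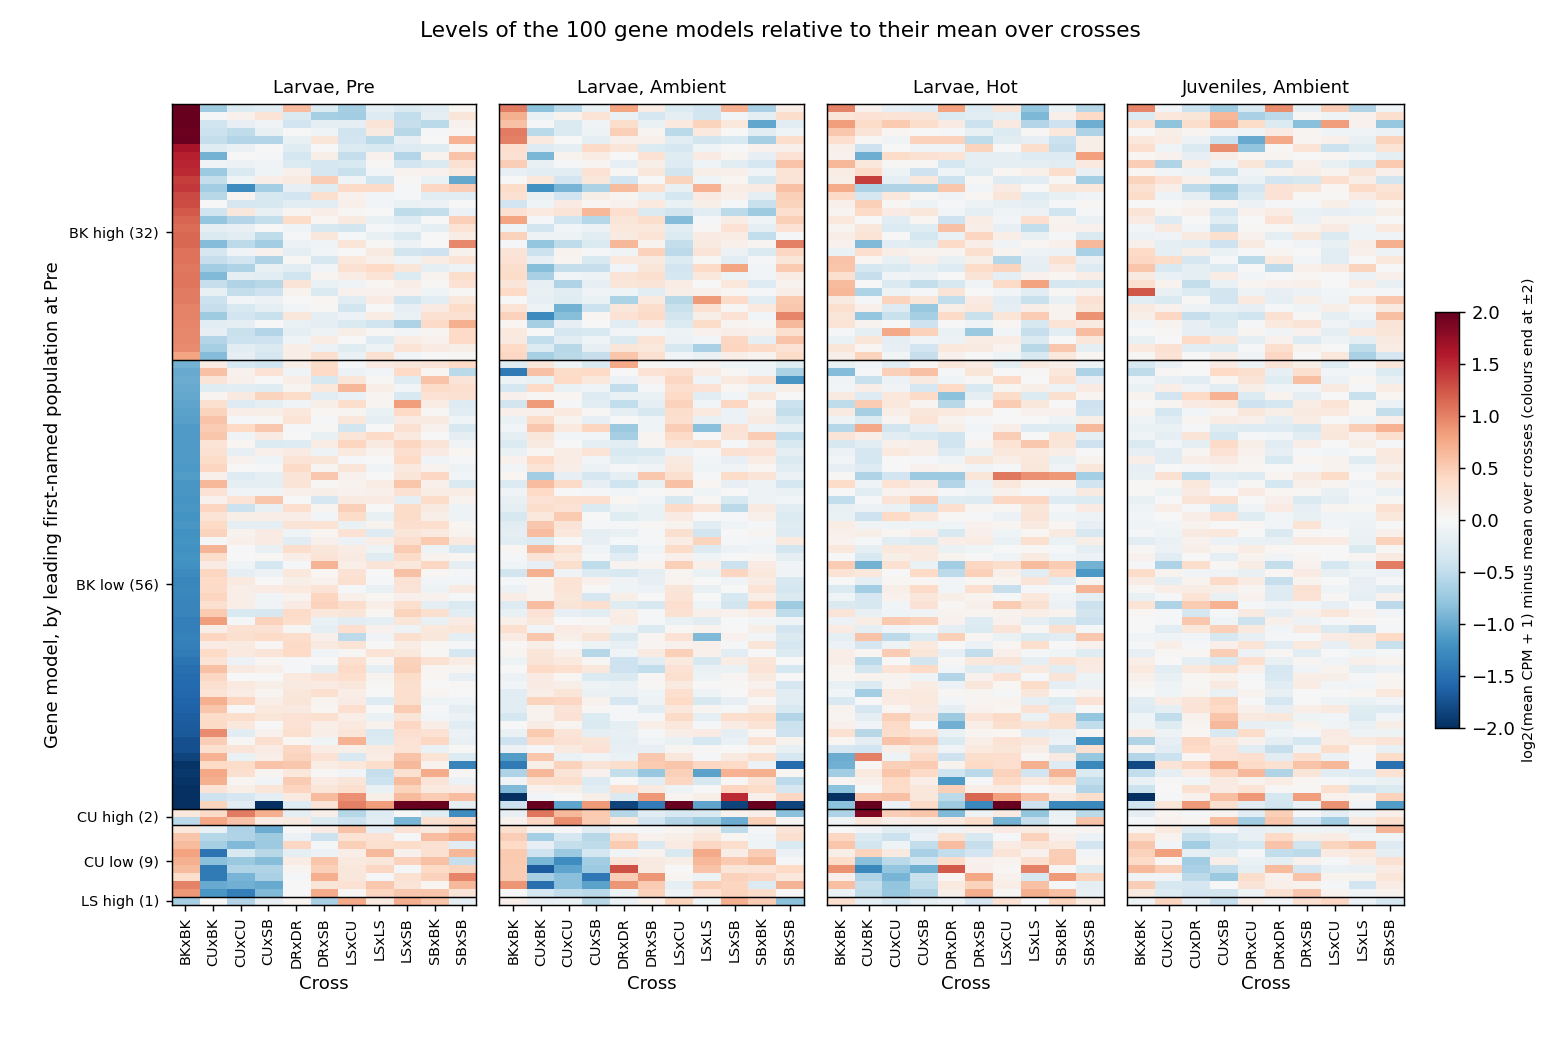
Levels of the 100 members (rows) in each cross (columns) as log2(mean CPM + 1) minus the row's mean over crosses, in Pre, Ambient and Hot larvae and Ambient juveniles, grouped by leading population at Pre. The BKxBK column stands out in the Pre panel over 88 rows and fades in the other panels, whereas 7 of the 9 members that were low in CU-first crosses keep these crosses fully apart in Ambient larvae and 5 of the 9 in Hot larvae.

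Over all 100 members, mean levels at Pre ran from 20.6 to 1245 CPM with a median of 55.7. First-named eta-squared ran from 0.662 to 0.980 and second-named eta-squared from 0.0212 to 0.328. The last member chosen had a difference between both of 0.630687 and the first model left out had 0.630682. The step at the threshold was thus far smaller than the range of the members, whose highest difference, 0.839, belonged to Amillepora23064-RA. The files give only model identifiers, which are not paired with gene names, so no function is given for any member.

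In the 88 BK-led members BKxBK at Pre was also described library by library. The 3 BKxBK libraries all lay outside the range of the other 30 Pre libraries in 74 of the 88. This count was not made over the eligible models. By cross means, BKxBK lay outside all other Pre crosses in 47.1% of the eligible models and in all 88 of these members. The median difference between BKxBK and the mean of the other crosses was 1.26 (log2) in the 32 high members and -1.42 in the 56 low members. Replicate 2, the shallowest of the 3, had the largest median differences, 1.52 and -1.83, against 1.11 and -1.19 in replicate 1 and 1.32 and -1.39 in replicate 3. The separation and these differences are what the rule selected.

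The BKxBK difference was much smaller in every set of libraries that the rule did not use. Since the members were chosen for their Pre values, a smaller difference elsewhere is built into the choice and is given as a description. The labels used here give no sampling age for Pre or Ambient larvae. In the high members its median was 0.36 (log2) in Ambient larvae, 0.27 in Hot larvae and 0.20 in juveniles. In the low members it was -0.15, -0.06 and -0.09. The sign seen at Pre returned in 71 of the 88 members in Ambient larvae (80.7%), in 61 in Hot larvae (69.3%) and in 62 in juveniles (70.5%). Among all eligible models, whose Pre difference was smaller, the sign returned in 62.96%, 60.5% and 57.2%. BKxBK lay outside the range of all other crosses in 19 members in Ambient larvae, in 22 in Hot larvae and in 22 in juveniles, where the same held for 18.8, 18.3 and 22.9 percent of the eligible models. The members' shares, 21.6%, 25.0% and 25.0% of the 88, count BKxBK on either side. They were near that background in Ambient larvae and juveniles and higher in Hot larvae. On the side seen at Pre, BKxBK lay outside in 18 members in Ambient larvae, 19 in Hot larvae and 21 in juveniles. The same held for 301 of the 2257 eligible models in Ambient larvae and 339 in juveniles, a smaller share than in the members. In Hot larvae too the share of the eligible models was smaller. None of these differences in share was tested.

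**Figure D2:**
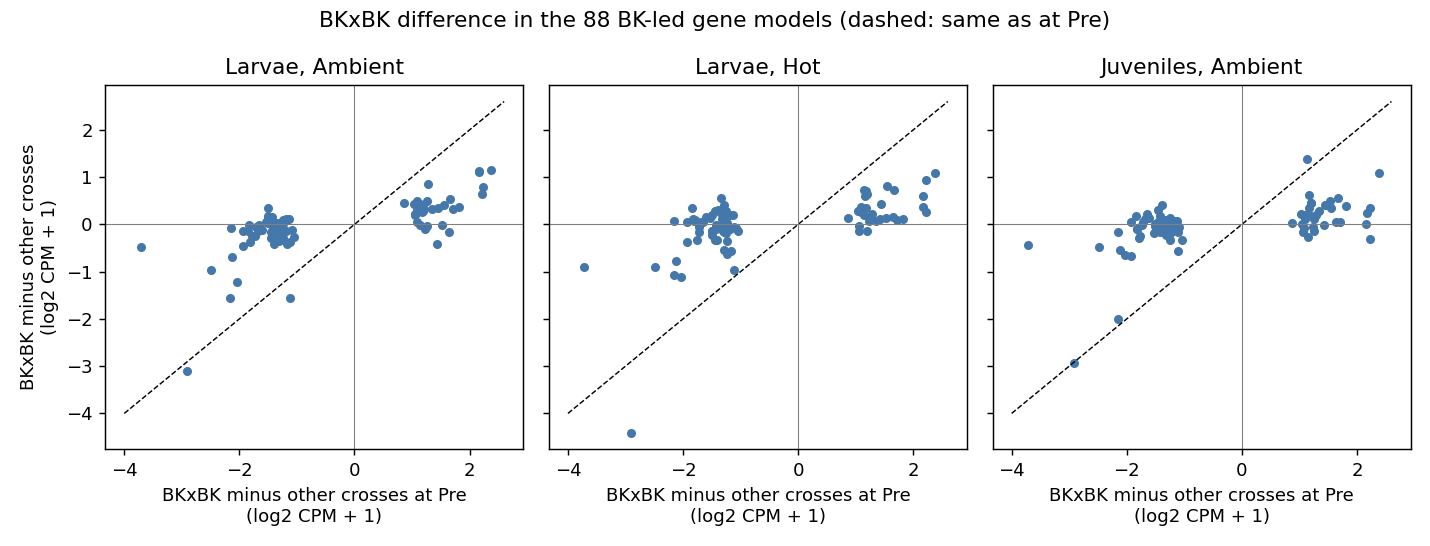
Difference between BKxBK and the mean of the other crosses in log2(mean CPM + 1) for the 88 BK-led members, at Pre (horizontal axis) and in Ambient larvae, Hot larvae and Ambient juveniles (vertical axes). Most points lie near 0 on the vertical axis and far from the dashed line of equality, with Amillepora10775-RA, at the lower left, close to the line or below it in all 3 panels.

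BKxBK was also tested against the other crosses over summed libraries. Its arm was then a single summed cross against 9 or 10 others, a design in which hardly any model passed, so a low count does not show that few members differed. In Ambient larvae 0 of 100 passed edgeR's quasi-likelihood test at an adjusted p of 0.05, where 0.0141 percent of all models tested did. At an unadjusted p under 0.05 there were 13 members, against 5.02 percent of all models, and DESeq2 called 2, against 0.113 percent. In Hot larvae 0 passed, with 10 at an unadjusted p under 0.05 against 4.7 percent of all models and 1 called by DESeq2 against 0.0788 percent. In juveniles 1 passed, Amillepora03329-RA, where the rate over all models was 0.113 percent.

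A small number of members kept BKxBK apart throughout. In 8 of the 88, BKxBK lay beyond every other cross on its Pre side in Ambient larvae, in Hot larvae and in juveniles. The same held for 1.99 percent of the eligible models. The high ones were Amillepora03329-RA, Amillepora05890-RA, Amillepora08660-RA and Amillepora26117-RA, and the low ones Amillepora06709-RA, Amillepora10775-RA, Amillepora14529-RA and Amillepora24230-RA. They were named after their values were seen.

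Amillepora10775-RA was nearly absent from BKxBK at both life stages. The 3 BKxBK libraries held 1.49, 7.46 and 0 CPM at Pre, 1.26, 4.64 and 2.196 CPM in Ambient larvae and 0, 0 and 1.23 CPM in Hot larvae. The 12 BKxBK juvenile libraries ran from 0 to 9.79 CPM with a median of 4.08. Every other cross had a mean well above these values, from 17.8 to 46.0 CPM at Pre, 20.5 to 72.7 in Ambient larvae, 14.4 to 47.9 in Hot larvae and 22.4 to 53.3 in juveniles. CUxBK and SBxBK, the 2 crosses with BK as the second-named population, had 24.4 ± 3.20 and 27.3 ± 3.18 CPM in Ambient larvae (SD, n = 3 each). Among the crosses sequenced, BKxBK was thus the one with a mean near 0. The fitted difference in juveniles was -3.41 (log2), with BKxBK as a single summed cross. It did not pass the test in juveniles, in Ambient larvae or in Hot larvae. Single juvenile libraries of CUxCU and DRxDR also held 0 CPM, although the means of these crosses were 28.4 and 22.4 CPM.

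Amillepora03329-RA was the reverse case, highest in BKxBK everywhere. Its BKxBK libraries held 301.7, 279.7 and 163.7 CPM at Pre, 128.2, 183.1 and 189.99 CPM in Ambient larvae and 233.4, 249.4 and 230.6 CPM in Hot larvae. The highest mean among the other crosses was 129, 140 and 179 CPM in the same order. In juveniles the 12 BKxBK libraries ran from 62.9 to 521 CPM with a median of 340, and the other crosses had means of 96.9 to 124 CPM. BKxBK thus overlapped the other crosses library by library in juveniles but exceeded every other cross mean. The juvenile difference was 1.33 (log2), fitted with BKxBK as a single summed cross, so the spread among its 12 libraries did not enter the fit.

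Amillepora14529-RA and Amillepora06709-RA were lowest in BKxBK in all 4 sets of libraries. Amillepora14529-RA had 74.3 ± 11.2 CPM in BKxBK at Pre, 117 ± 25.8 in Ambient and 47.1 ± 9.34 in Hot larvae (SD, n = 3 each), with the next lowest cross at 218, 201 and 55.7 CPM. Its juvenile mean of 70.1 ± 36.7 CPM (SD, n = 12) was close to the next cross at 77.8 CPM. Amillepora06709-RA had 25.7 ± 3.88, 18.9 ± 5.40 and 27.8 ± 3.07 CPM in the larval BKxBK libraries, with the next lowest cross at 36.3, 33.1 and 33.5 CPM. In all 3 larval sets that next cross was SBxSB, also a within-population cross. None of these differences from the other crosses passed the test, with adjusted p-values of 0.561 to 0.989 over both members and the 3 sets.

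Amillepora08660-RA, highest in BKxBK, was next highest in another within-population cross, DRxDR. BKxBK held 163 ± 57.7 CPM at Pre, 87.8 ± 20.1 in Ambient and 78.3 ± 10.2 in Hot larvae (SD, n = 3 each) and 118.3 ± 32.005 in juveniles (SD, n = 12). DRxDR came second in all 4, with 55.2, 73.8, 68.8 and 114 CPM. The remaining crosses of juveniles lay between 35.9 and 83.8 CPM, so BKxBK and DRxDR stood together above them. In Amillepora05890-RA, Amillepora26117-RA and Amillepora24230-RA the juvenile margin to the nearest cross was narrow, at 105 against 102 CPM, 35.6 against 34.8 CPM and 16.6 against 17.3 CPM. It was wider in some larval sets, as in Amillepora24230-RA at Ambient, with 17.4 against 26.1 CPM.

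Amillepora18050-RA was low in 2 within-population crosses, BKxBK and SBxSB, at every stage and temperature. BKxBK had 14.5 ± 1.996, 24.6 ± 11.7 and 27.9 ± 8.16 CPM and SBxSB had 23.0 ± 1.43, 22.5 ± 7.23 and 22.1 ± 6.20 CPM at Pre, Ambient and Hot (SD, n = 3 each). SBxBK, which joins both populations, had 62.4 ± 6.81, 62.0 ± 20.7 and 46.1 ± 12.5 CPM. The other larval crosses had means of 56.6 CPM or more, so the cross between the 2 low populations sat with or just below the rest and not with either parent population. In juveniles BKxBK had 9.95 ± 7.84 and SBxSB 12.6 ± 8.05 CPM (SD, n = 12 each), against 36.7 to 62.0 CPM in the 8 others. SBxBK was not among the juvenile crosses.

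Whether the members followed the first-named population outside Pre was asked in 2 ways. As a description, first-named eta-squared exceeded second-named eta-squared in 51 of the 100 members in Ambient larvae, 49 in Hot larvae and 62 in juveniles. The corresponding shares of all models with at least 20 CPM were 48.8%, 50.6% and 53.6%. Median eta-squared of the members was 0.502 by first-named and 0.426 by second-named population in Ambient larvae, 0.496 and 0.448 in Hot larvae and 0.478 and 0.385 in juveniles. The 88 BK-led members had 40, 40 and 55 with the first-named value above. The 12 others had 11, 9 and 7, with medians of 0.794 against 0.266 in Ambient and 0.795 against 0.320 in Hot larvae. Counting all 3 sets together, the first-named value was the higher in 3 sets for 26 members, in 2 for 26, in 1 for 32 and in 0 for 16. In juveniles BK was named only in BKxBK, which enters the first-named and second-named values alike. The juvenile count of 55 in the BK-led members was the same without BKxBK. The juvenile values therefore cannot show which position a BK contrast followed.

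**Figure D3:**
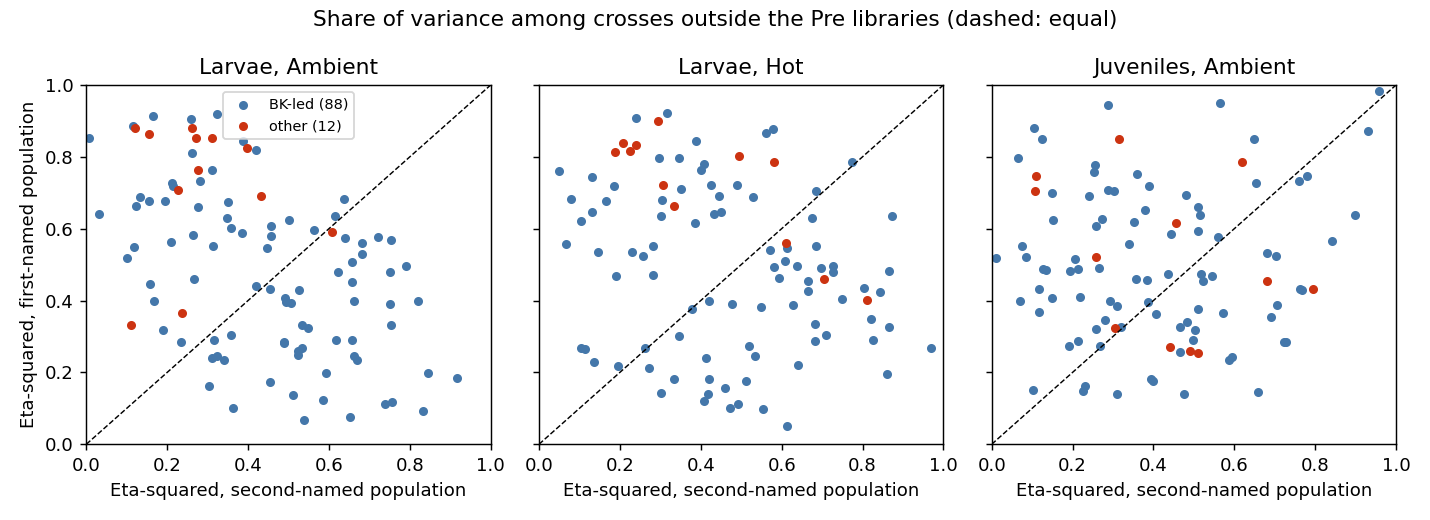
Eta-squared by first-named population (vertical axis) against eta-squared by second-named population (horizontal axis) for each member in Ambient larvae, Hot larvae and Ambient juveniles, with BK-led members in blue and the 12 others in red. The blue points spread over both sides of the dashed line of equality, and 11 of the 12 red points lie above it in Ambient larvae and 9 in Hot larvae.

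As a test over summed libraries, the first-named population passed in 0 members in Ambient larvae, where 0 percent of all models passed, and in 0 in Hot larvae, where 0.0215 percent did. At an unadjusted p under 0.05 there were 22 members in Ambient larvae, against 7.29 percent of all models, and 22 in Hot larvae, against 8.9 percent. DESeq2 called 10 members in Ambient larvae, against 0.972 percent of all models, and 6 in Hot larvae, against 1.22 percent. The 12 members not led by BK held 8 of the 22 in each set. The second-named population passed in 0 members in Ambient larvae (0 percent of all models) and 0 in Hot larvae (0 percent), with 15 and 8 members at an unadjusted p under 0.05 against 4.39 and 3.96 percent of all models. DESeq2 called 0 and 1 member for it, against 0.24 and 0.158 percent.

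By the rule for naming, the members with the smallest p in Ambient larvae were given, since none passed. They were Amillepora20738-RA and Amillepora29486-RA among those with a high leading population, with adjusted p-values of 0.319 and 0.328, and Amillepora06709-RA and Amillepora26811-RA among those with a low one, with 0.303 and 0.312. Amillepora20738-RA, led by BK at 55.8 ± 9.60 CPM at Pre, had 44.5 ± 5.39 CPM in BKxBK in Ambient larvae (SD, n = 3 each). DRxDR, at 49.4 ± 5.22 CPM, was then above it and CUxBK, at 20.5 ± 0.30 CPM, was lowest. BKxBK was thus no longer the highest cross for this member.

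In juveniles the first-named population passed in 3 members, Amillepora03329-RA (adjusted p = 0.00924), Amillepora18050-RA (0.0183) and Amillepora06693-RA (0.0299), where 0.303 percent of all models passed. At an unadjusted p under 0.05 there were 17 members, against 9.2 percent of all models, and DESeq2 called 7, against 1.57 percent. The count that passed fell to 1 without BKxBK and to 1 without replicate 2. The first 2 of these members are the ones described above, with 1 and 2 within-population crosses apart from the rest. In juveniles BK stood first only in BKxBK and SB only in SBxSB. First-named position and single cross therefore cannot be told apart in these 2 members. Juvenile eta-squared of Amillepora03329-RA was 0.984 by first-named and 0.959 by second-named population. Amillepora06693-RA, lowest in BKxBK at Pre with 70.6 ± 6.74 CPM (SD, n = 3), was at 170 ± 51.0 CPM there in juveniles (SD, n = 12). The high juvenile means of this member were those of SBxSB (303 ± 198 CPM), LSxLS (262.6 ± 145) and LSxCU (218 ± 158.9), and the 7 others lay between 150.4 and 182.1 CPM. The juvenile order of the crosses in Amillepora06693-RA was therefore not that at Pre. For the second-named population 0 members passed (0 percent of all models), 8 had an unadjusted p under 0.05 against 4.16 percent, and DESeq2 called 2, against 0.339 percent.

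The contrast of the 11 CU-led members rested on 3 crosses, not on 1. Of these, 9 were low and 2 high where CU was named first, in CUxBK, CUxCU and CUxSB. At Pre the 3 CU-first crosses lay entirely outside the range of the 8 others in 9 of the 11. That Pre count describes the choice, and no share over the eligible models is given for it. In libraries the rule did not use they did so in 8 of the 11 in Ambient larvae, where 3.85 percent of the eligible models did, and in 6 in Hot larvae (6.82 percent). The juvenile CU-first crosses were other ones, CUxCU, CUxDR and CUxSB against 7 others, and lay outside the range in 2 of the 11 (1.95 percent of the eligible models). The direction of Pre returned in 11, 11 and 10 of the 11. The median difference in that direction was 1.08 (log2) at Pre, 0.85 in Ambient larvae, 0.83 in Hot larvae and 0.31 in juveniles. No test was made of this contrast, which the choice of the leading population defined.

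Amillepora05192-RA was the most abundant of the members low in CU-first crosses. At Ambient its libraries held 73.5, 78.6 and 87.8 CPM in CUxBK, 129, 100.0 and 137 CPM in CUxCU and 149, 142 and 170 CPM in CUxSB. LSxCU, which carries CU as the second-named population, held 261.1, 234.4 and 277.7 CPM, and the highest cross, DRxDR, had a mean of 616 ± 59.3 CPM (SD, n = 3). The ranges of the CU-first crosses and of all others did not overlap. At Hot the CU-first means were 59.01 to 85.03 CPM and the others 122.9 to 342.96 CPM. In juveniles the groups overlapped: CUxCU reached 98.2 ± 39.0 CPM (SD, n = 12), above 5 of the 7 crosses without CU first.

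Amillepora26811-RA kept its contrast into juveniles. Its means in CU-first crosses were 8.27 to 14.7 CPM in Ambient and 15.0 to 21.5 CPM in Hot larvae, against 22.3 to 45.0 and 23.6 to 54.4 CPM in the others. LSxCU stood with the others, at 24.9 ± 2.99 and 31.6 ± 5.03 CPM (SD, n = 3 each). The juvenile means were 16.3 to 26.4 CPM against 26.5 to 41.6 CPM. The groups did not overlap, but the CUxCU mean of 26.4 ± 30.5 CPM (SD, n = 12) rested on few high libraries, its median being 15.7 and its highest value 107 CPM. Amillepora29596-RA was the other member separated in juveniles, at 24.8 to 27.1 against 30.1 to 47.7 CPM.

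Amillepora24666-RA had CU-first means of 10.3 to 15.52 CPM in Ambient and 13.7 to 19.0 CPM in Hot larvae, against 25.3 to 41.3 and 25.9 to 36.4 CPM. Amillepora23064-RA had 6.49 to 10.9 and 9.06 to 11.5 CPM, against 16.6 to 38.3 and 14.3 to 25.5 CPM. Both were clearly apart in larvae and overlapped the other crosses in juveniles. Amillepora18285-RA and Amillepora23591-RA were separated at Ambient but not at Hot. Amillepora04571-RA overlapped the other crosses in every set outside Pre, and Amillepora12565-RA did so in every set, Pre included.

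Of the members high in CU-first crosses, Amillepora21373-RA had 42.0 to 61.6 CPM in Ambient larvae, against 15.9 to 31.0 CPM in the other crosses, and 33.4 to 87.98 CPM in Hot larvae, against 12.3 to 27.0 CPM. CUxBK at Hot, with 87.98 ± 18.1 CPM (SD, n = 3), was far above the rest. In juveniles all crosses were higher and no longer separated, 102 to 109 CPM with CU first and 89.96 to 146.5 CPM otherwise. Amillepora29486-RA was never fully separated, not even at Pre, where DRxDR, SBxBK and SBxSB overlapped the CU-first crosses.

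**Figure D4:**
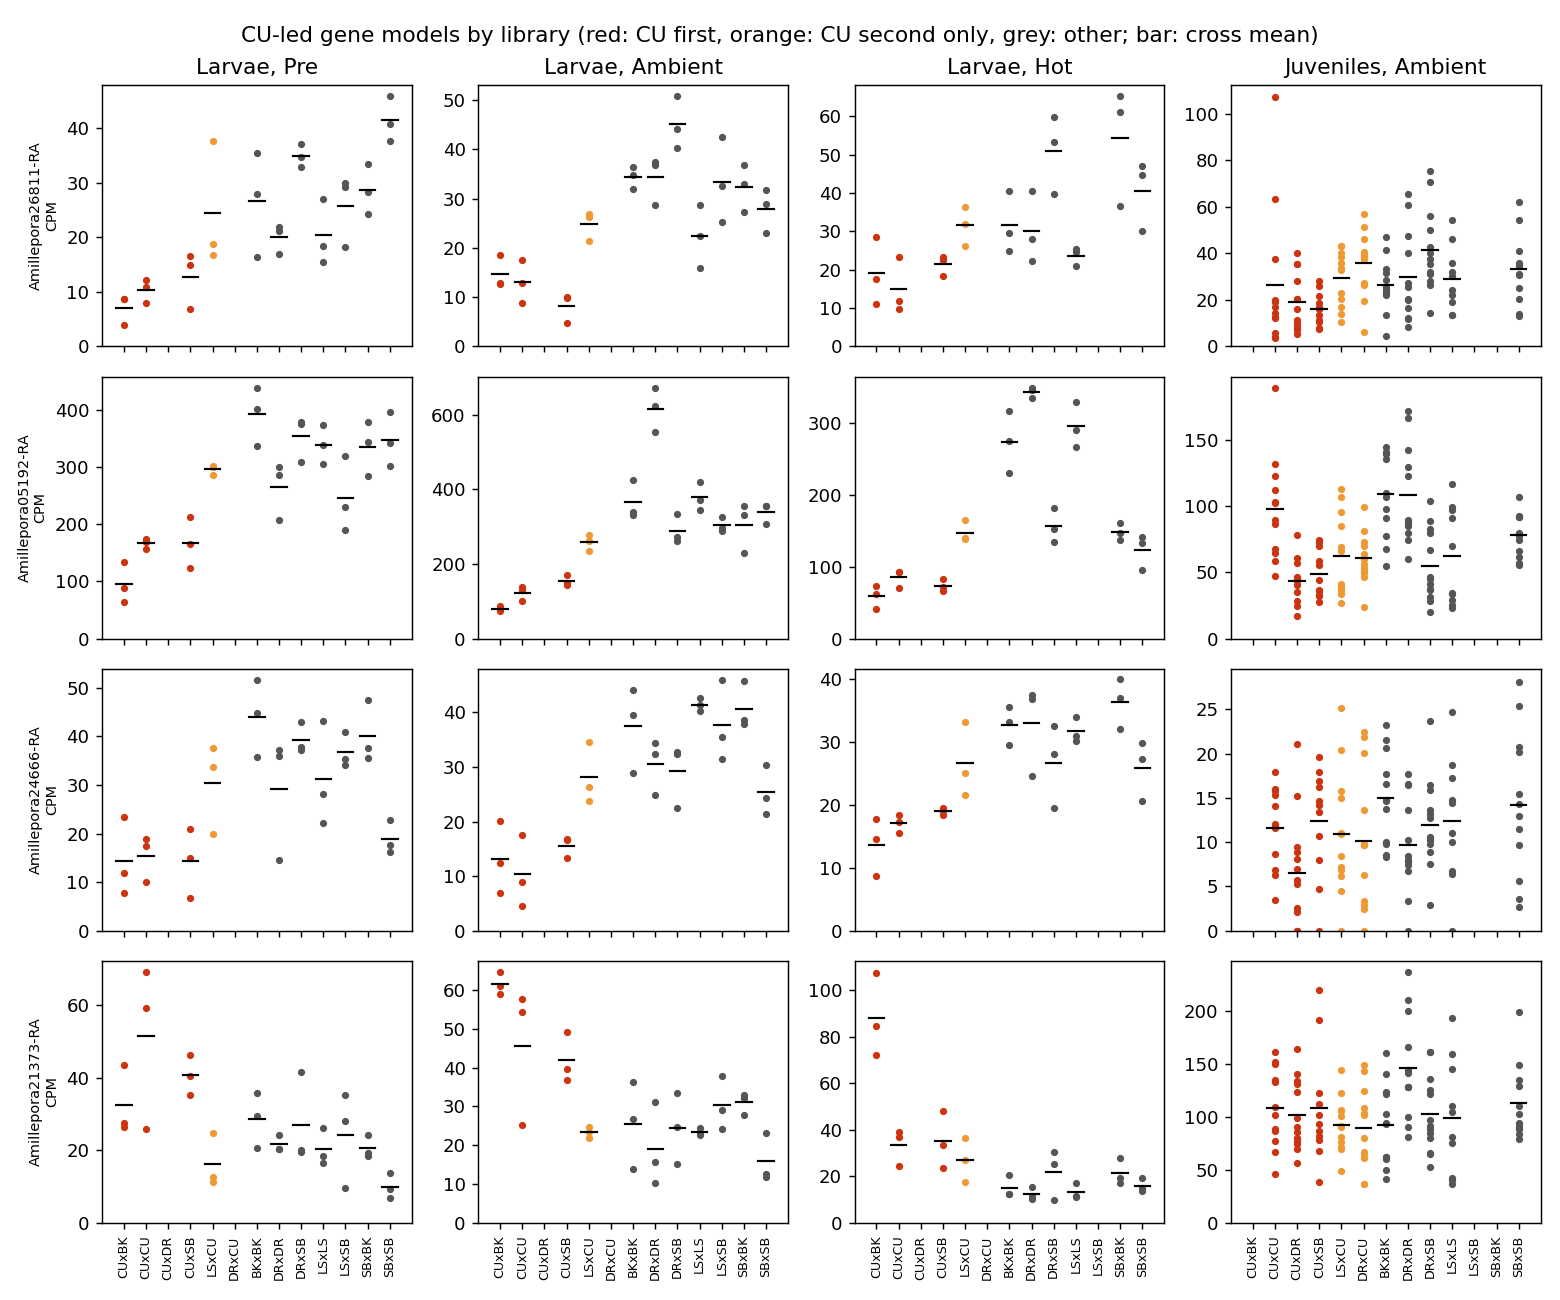
CPM of each library (points) and mean of each cross (bars) for Amillepora26811-RA, Amillepora05192-RA, Amillepora24666-RA and Amillepora21373-RA, in Pre, Ambient and Hot larvae and Ambient juveniles, each panel with its own vertical axis from 0. Red crosses name CU first and orange ones CU second only; in the Ambient and Hot larval panels every red bar lies below every other bar for the first 3 models and above for the last. These 4 models were picked for the plot after their values were seen.

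The member led by LS, Amillepora30352-RA, was high at Pre in LSxCU (56.8 ± 16.1 CPM) and LSxSB (56.1 ± 7.87 CPM) but less so in LSxLS (37.8 ± 5.56 CPM; SD, n = 3 each). SBxBK, at 49.2 ± 7.89 CPM, lay between them. In Ambient larvae LSxSB was again highest at 66.2 ± 13.3 CPM, and LSxLS, at 37.6 ± 8.84 CPM, was below SBxBK, BKxBK and DRxSB. This member therefore did not separate LS-first crosses from the rest.

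A balanced set of larval crosses allowed the first-named and second-named effects to be fitted apart without BKxBK. In Ambient and Hot libraries of CUxBK, CUxSB, SBxBK and SBxSB, summed per cross and temperature, CU-first differed from SB-first in 11 of the 100 members, where 7.21 percent of all models passed. These are 4 crosses that each entered once per temperature, and the p-values take the 2 sums of a cross as independent although they may share parents. Of these calls, 4 were higher in CU-first (4.09 percent of all models) and 7 lower (3.11 percent). BK-second differed from SB-second in 1 member, where 2.56 percent of all models passed. The 11 comprised 6 of the 88 BK-led members and 5 of the 12 others. The share in the members as a whole was thus near the background, and the calls among the CU-led members concern the contrast that led to their choice, in other libraries of the same crosses.

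Among the CU-led members, Amillepora05192-RA differed with CU first by -1.29 (log2, SE 0.16, adjusted p = 0.00223) and Amillepora26811-RA by -1.29 (SE 0.20, adjusted p = 0.00556). Amillepora24666-RA differed by -1.06 (SE 0.18, adjusted p = 0.00832) and Amillepora29596-RA by -0.73 (SE 0.17, adjusted p = 0.0300). Amillepora21373-RA was higher by 1.41 (SE 0.20, adjusted p = 0.00405). Among the BK-led members Amillepora18050-RA was higher with CU first by 1.06 (SE 0.16, adjusted p = 0.00449), with the low level confined to SBxSB: at Ambient CUxBK had 73.9, CUxSB 81.4, SBxBK 62.0 and SBxSB 22.5 CPM. The only member with a second-named effect, Amillepora03051-RA, differed with BK second by -1.003 (SE 0.17, adjusted p = 0.0151). Its CUxBK libraries averaged 54.03 CPM at Ambient against 114.3 in CUxSB, 91.8 in SBxBK and 126.6 in SBxSB.

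The juvenile crosses CUxDR and DRxCU, made of the same populations in both orders, were not among the larval crosses the rule used. In a fit over 49 libraries of CUxCU, CUxDR, DRxCU and DRxDR with symbiont treatment as a covariate, 92 of the 100 members passed the filter on low counts. CUxDR differed from DRxCU in 0 of them, where 0.101 percent of all models passed, with 11 at an unadjusted p under 0.05 against 6.95 percent of all models and 0 called by DESeq2. Without replicate 1, 1 member passed. CU-first differed from DR-first in 1 member (0.847 percent of all models) and CU-second from DR-second in 1 member (0.974 percent).

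Both of these calls came from a single within-population cross. Amillepora08660-RA differed with CU first by -0.61 (log2, SE 0.14, adjusted p = 0.0108), with 114 ± 28.4 CPM in DRxDR, 56.9 ± 34.8 in CUxCU, 43.7 ± 9.97 in CUxDR and 47.8 ± 16.0 in DRxCU (SD, n = 12, 12, 13 and 12). Amillepora23591-RA was higher with CU second by 0.78 (log2, SE 0.17, adjusted p = 0.0103), with 60.1 ± 22.5 CPM in CUxCU and 23.6 to 32.9 CPM in the 3 other crosses. In both members the reciprocal crosses had similar means. The first call was lost without replicate 1 or 3 and with sums per cross and symbiont treatment, and the second without replicate 1, 2 or 3.

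The members with the smallest p for the reciprocal pair, named since none passed, were Amillepora10129-RA and Amillepora03028-RA, higher in CUxDR, and Amillepora35756-RA and Amillepora26811-RA, lower in it. Amillepora10129-RA had 29.1 to 67.7 CPM over the 13 CUxDR libraries (median 45.6) and 7.22 to 58.6 CPM over the 12 DRxCU libraries (median 19.0). The ranges overlapped, and the difference was 0.93 (log2, SE 0.24, adjusted p = 0.133). CUxCU and DRxDR lay between both, at 29.9 and 33.1 CPM. Amillepora26811-RA had 5.29 to 40.0 CPM in CUxDR (median 16.0) and 6.43 to 57.0 CPM in DRxCU (median 38.8), a difference of -0.90 (SE 0.38, adjusted p = 0.584) in the direction of its low level in CU-first larvae. Amillepora03028-RA differed by 0.66 (SE 0.24, adjusted p = 0.461) and Amillepora35756-RA by -0.53 (SE 0.20, adjusted p = 0.488).

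As a description, the sign of CUxDR minus DRxCU in juveniles was that of the CU-first minus DR-first difference at Pre in 55 of the 100 members. It was so in 51.4% of all eligible models. The 88 BK-led members had 44 with the same sign and the 12 others 11, with a median difference in that direction of 0.32 (log2) in the 12. The 12 others were therefore the ones whose order in the juvenile pair resembled that of the Pre larvae, although none of them passed the test. Between juvenile CUxCU and DRxDR the Pre sign returned in 7 of the 12, with a median of 0.15 (log2) in that direction. It did so in 55.4% of the eligible models. The Pre difference between CU-first and DR-first crosses was also larger in the 12 others, with a median size of 0.84 (log2) against 0.21 in the BK-led members.

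**Figure D5:**
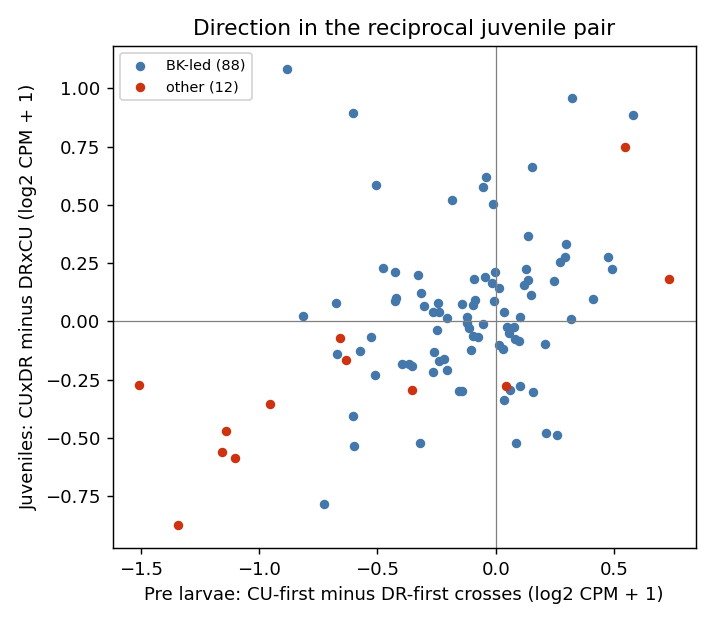
Difference between CUxDR and DRxCU juveniles (vertical axis) against the difference between CU-first and DR-first crosses in Pre larvae (horizontal axis), both in log2(mean CPM + 1), with BK-led members in blue and the 12 others in red. The red points lie mostly in the lower left, 11 of 12 with the same sign on both axes, and the blue points show 44 of 88.

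Temperature changed the members about as often as other models. Hot differed from Ambient in larvae, within the 10 crosses that had both, in 49 of the 100 members, where 44 percent of all models passed. Of these, 26 were higher at Hot (22.3 percent of all models) and 23 lower (21.6 percent). The members high in BKxBK had 9 higher and 5 lower, and those low in it 12 higher and 17 lower. The heat calls were thus spread over both groups.

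The rising members with the largest changes were Amillepora29486-RA and Amillepora02610-RA. Amillepora29486-RA averaged 176 ± 62.5 CPM over the 10 crosses at Ambient and 404 ± 107 CPM at Hot (SD over crosses) and was higher at Hot in 10 of 10 crosses, by 1.23 (log2, SE 0.14, adjusted p = 2.94e-06). Amillepora02610-RA, low in BKxBK at Pre, averaged 97.4 ± 17.6 CPM at Ambient and 220 ± 33.0 CPM at Hot, higher in 10 of 10 crosses, by 1.18 (SE 0.11, adjusted p = 2.51e-07). In this member the lowest Hot cross, at 165 CPM, was above the highest Ambient cross, at 120 CPM.

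Amillepora14529-RA fell by 1.38 (log2, SE 0.079, adjusted p = 5.36e-09), from an Ambient mean of 262.5 ± 78.9 CPM to a Hot mean of 102.2 ± 41.5 CPM (SD over 10 crosses), and was lower at Hot in every one of the 10. BKxBK fell with the rest and stayed the lowest cross at both temperatures. Amillepora21745-RA was called lower, with a difference of -1.45 (SE 0.51, adjusted p = 0.0307), but its levels were uneven. At Ambient LSxCU held 60.7 ± 49.8 CPM and SBxBK 18.0 ± 17.4 CPM (SD, n = 3 each), whereas CUxCU, DRxDR, DRxSB, LSxLS and SBxSB were all under 1 CPM. It was higher at Hot in 4 of the 10 crosses.

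Symbiont treatment differed among juveniles in 35 of the 94 members tested, where 30.5 percent of all models passed. The count was 18 without replicate 2, where 16.9 percent of all models passed, and 19 without replicate 3, where 18.6 percent did. Relative to C1, SED was lower in 26 of the 35 (16.9 percent of all models were called and lower) and higher in 9 (13.6 percent). The calls lower in SED comprised 19 of the 52 tested members low in BKxBK at Pre, 5 of the 31 high in it and 2 of the 11 others. The difference between these groups was not tested.

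Amillepora11727-RA had the largest decrease. It ranged from 0 to 37.5 CPM in SED (median 17.6), from 18.0 to 94.8 in C1 (median 53.7), from 25.7 to 125 in D1 (median 58.9) and from 23.6 to 120.9 in SS (median 55.5). SED lay mostly below the 3 other treatments, which were alike, and the log2 difference from C1 was -1.70 (adjusted p over the 4 treatments = 1.48e-16). In larvae the same member was lowest in BKxBK at Pre, at 7.43 ± 2.99 CPM, and in the middle of the crosses at Ambient, at 24.1 ± 2.89 CPM (SD, n = 3 each). It was higher at Hot than at Ambient in 10 of 10 crosses, by 0.99 (log2, SE 0.12, adjusted p = 4.53e-06).

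Amillepora17046-RA had medians of 11.9 CPM in SED and 32.1, 18.6 and 22.2 CPM in C1, D1 and SS, with overlapping ranges, and a log2 difference of -1.33 between SED and C1 (adjusted p = 1.44e-07). Amillepora04661-RA differed among treatments (adjusted p = 0.00315), with medians of 87.2 CPM in SED, 79.6 in D1, 51.6 in C1 and 47.1 in SS. Relative to C1 the log2 difference was 0.81 in SED, 0.52 in D1 and 0.08 in SS, so SED and D1 were both the higher treatments. Its level in BKxBK larvae went from 514 ± 57.0 CPM at Pre, against 86.3 to 151.4 CPM elsewhere, to 265.9 ± 7.47 CPM at Ambient (SD, n = 3 each), where LSxLS and DRxDR had 242.6 ± 38.5 and 227 ± 4.85 CPM. Amillepora21745-RA also differed among treatments (adjusted p = 0.0429), with log2 differences from C1 of 0.73 in D1, 1.003 in SED and 1.07 in SS. C1 had the lowest median, 10.2 CPM, against 21.2, 23.02 and 28.4 CPM in the same order, and single SED libraries ran from 0 to 215.5 CPM.

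For comparison, the 100 models chosen by the same rule without BKxBK had first-named eta-squared above second-named in 73 models in Ambient larvae, 69 in Hot larvae and 58 in juveniles, against 51, 49 and 62 of the members. Their calls in the balanced larval crosses numbered 29 for the first-named effect, against 11 of the members, and 5 for the second-named effect, against 1. The 100 models with the highest second-named minus first-named eta-squared had 18 and 10. These sets were chosen on Pre in the same way, and the differences between them and the members were not tested.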

How the data were processed

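The authors deposited raw counts per gene model, in 1 table for larvae and 1 for juveniles. The submitters' processing notes name Bowtie2 2.2.9. For the reference, the counting step and any removal of duplicate reads no source used here gives an account. The model identifiers begin with Amillepora, whereas the samples are Acropora tenuis. Whether the reference came from another species is not stated, and its part in the levels of single models was not tested. Reads of near-identical copies may be shared between models. Columns were assigned to samples by title and groups were taken from the labels. The 27 juvenile Hot libraries were not used.

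CPM and eta-squared were computed as described above. The counts went into edgeR 4.0.16 under R 4.3.3 (quasi-likelihood F-test, TMM scaling, filterByExpr, Benjamini-Hochberg adjustment over all models tested, threshold 0.05). Counts were summed per cross, or per cross and temperature. The tests of symbiont treatment and of CU and DR juveniles used libraries, with cross and treatment as terms. The standard error of a log2 difference was its size divided by the square root of F. The steps were tested on simulated data with known changes. Alternatives were DESeq2 1.42.0, its size factors, no filter on low counts, other member lists, libraries in place of sums, and leaving out each replicate number or BKxBK.

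The members and lists were chosen with earlier results of these data known. Named members were the smallest p in Ambient larvae and in the reciprocal pair, since none passed, and the largest changes with heat and symbiont treatment among those that passed. All others were named after their values were seen, and the comparisons of BKxBK with the other crosses were added after the members were seen to be led by it. Between replicate libraries of a group, chi-square per degree of freedom ran from 1.05 to 4.24 in larvae and from 2.18 to 9.46 in juveniles. The lowest larval value was close to what sampling noise alone gives, and no test was made of these values. With 3 libraries per larval group, counting error and the spread between libraries both limit the precision of a CPM near 20.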

Additional observations from a re-analysis of the deposited data

Results flagged for a closer look

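In 29 named members, the highest and the lowest of the 10 crosses in Hot larvae and in Ambient juveniles were compared with the nearest other cross by Dixon's ratio. Of 58 such groups, 7 had a cross that stood apart. Chance flags about 1 group in 20, but some of these members were named because a cross stood apart, so the count cannot be set against that rate.

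Amillepora10775-RA was lowest in BKxBK at Hot, at 0.409 CPM against 14.4 CPM in the nearest cross, and in BKxBK juveniles, at 3.78 against 22.4 CPM. Amillepora03329-RA was highest in BKxBK juveniles, at 299.99 against 124 CPM. Amillepora21373-RA was highest in CUxBK at Hot, at 87.98 against 35.05 CPM, and in DRxDR juveniles, at 147 against 113 CPM. Amillepora11727-RA was highest in CUxSB juveniles, at 68.4 against 49.7 CPM. Amillepora12565-RA was highest in SBxSB juveniles, at 47.7 against 33.6 CPM.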

How the results depend on the processing

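Each value here is the percent of the members that passed at an adjusted p of 0.05. Under the alternatives 116 values stayed within 1.5 times of it and 53 did not, and the cause was not tested. With libraries in place of sums, the first-named and second-named populations passed in 46 and 30 in Ambient larvae, 42 and 31 in Hot larvae, 25 and 17 in juveniles, and 34 and 32 in the balanced larval crosses. The shares of all models rose too, to 20 and 16.6 percent, 23.1 and 15.9 percent, 15.7 and 8.83 percent, and 29 and 22 percent in the same order. Replicate numbers did not pair the libraries (median correlation of deviations 0.00122 over 1488 same-numbered pairs, 70 above 0.1). With the replicate block on libraries the values in Ambient larvae were 46 and 29 (18.4 and 14.3 percent of all models). In Hot larvae they were 40 and 30 (21.1 and 13.4 percent), and in the balanced larval crosses 33 and 30 (28 and 21.1 percent). DESeq2 gave 10 for the first-named population at Ambient (0.972 percent of all models). For the first-named and second-named it gave 6 and 1 at Hot (1.22 and 0.158 percent) and 7 and 2 in juveniles (1.57 and 0.339 percent). For the second-named effect in the balanced larval crosses it gave 3 (3.11 percent). Without the filter on low counts the value was 16 for the first-named population at Hot (3.81 percent of all models). In juveniles the values were 7 and 2 (1.35 and 0.0996 percent). For the first-named and second-named effects in CU and DR juveniles they were 2 and 2 (0.8 and 0.93 percent). The reciprocal pair had 1 (0.29 percent) and the balanced larval crosses 20 and 8 (8.81 and 5.4 percent). With models chosen without BKxBK the value was 5 for the first-named population in juveniles (0.303 percent of all models). It was 0 for the first-named effect in CU and DR juveniles (0.847 percent). The balanced larval crosses had 29 and 5 (7.21 and 2.56 percent). With 50 members, and with members chosen on TMM-scaled CPM, both effects in CU and DR juveniles and the second-named effect in the balanced larval crosses were 0. The number after the letter S in a library's column heading, as a covariate, gave 0 for the second-named effect in CU and DR juveniles (0.558 percent of all models). The labels do not say what this number stands for. Leaving out BKxBK gave 1 for the first-named population in juveniles (0.228 percent).

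Leaving out each replicate number gave 1 to 3 for the first-named population in juveniles (0.0829 to 0.361 percent of all models). For each of the 3 effects in CU and DR juveniles it gave 0 to 1 (0.0378 to 0.995 percent over the 3). The balanced larval crosses had 8 to 10 and 1 to 4 (4.61 to 6.18 and 1.65 to 2.27 percent). Heat had 43 to 44 (40.5 to 42.3 percent) and symbiont treatment 18 to 37 (16.9 to 33.1 percent). Both populations had 0 in Ambient and Hot larvae. The tests over libraries treat libraries of 1 cross as independent, which the labels do not state, and cross and parentage cannot be told apart. Members near 20 CPM rest on few counts in juveniles.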
